A study of Homo sapiens with 5 samples.

Results

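The protein genes of the large (60S) ribosomal subunit were followed across the poly(A) sites of H9 human embryonic stem cells with and without editing of CFIm25. Members were all genes in the deposited site table whose symbol is RPL with a number (with A, L or L1 where present) or RPLP0 to RPLP2. This rule gave 51 genes of 12693 and 144 sites of 29996, and used no measured value.

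The table holds 5 libraries from H9, an established human embryonic stem cell line grown undifferentiated in mTeSR medium. Of these, 2 were labelled control KO and 3 were labelled CFIm25 KO, and CRISPR-Cas9 editing is named for both groups. Per the study, its mock controls received the editing vector without a guide, every edited line was grown from 1 cell, and these clones kept a reduced amount of CFIm25 with short deletions near the N-terminus, so CFIm25 KO is used here as a name only. The study describes its 3′ end data as mock cells against 3 edited lines, which were made with separate guides, and it picked 2 mock clones as controls. The labels do not tie a library to a clone. The p-values thus measure the spread between these libraries, which takes in differences between clones that editing did not make.

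CFIm25, encoded by NUDT21, is the cleavage factor I subunit that binds UGUA in nascent RNA upstream of poly(A) sites and affects which site of a gene is cut. Large-subunit ribosomal proteins assemble with ribosomal RNA in the nucleolus and form the subunit in which amino acids are joined, and their mRNAs are among the most abundant of growing cells. Most of these mRNAs begin with a pyrimidine tract (5′ TOP) that couples their translation to growth signals, and most have short 3′ UTRs.

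The starts of the member genes share this tract. In the RefSeq table of GRCh38.p14, 42 of the 51 members had a start sequence, and 33 of these 42 (78.6%) held an unbroken run of at least 8 C or T bases touching the 5 bases on either side of the annotated start, against 16.2% of 9581 genes of the site table with a start sequence. The median run was 12 bases in members and 4 bases over those genes. Small-subunit genes were alike, with such a run in 20 of 25 (80.0%) and a median of 11 bases. The 4 starts below belong to the member of highest level, to 2 members whose downstream ends are described further on and to the gene with the longest run. The run is in capitals and the annotated start is at base 11 of each line.

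RPL37A, chr2:216498834-216498863, plus strand: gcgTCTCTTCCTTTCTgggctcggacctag
RPL22, chr1:6199576-6199605, minus strand: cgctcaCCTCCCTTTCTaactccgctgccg
RPL4, chr15:66504836-66504865, minus strand: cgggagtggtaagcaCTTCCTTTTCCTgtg
RPL7A, chr9:133348208-133348237, plus strand: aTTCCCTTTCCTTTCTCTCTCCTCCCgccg

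RPL15, whose downstream ends are also described further on, is among the exceptions, with a run of 3 bases at its annotated start. RPL26L1, RPL27 and RPL7L1 had runs of 3, 2 and 2 bases.

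The ends were compared with the annotation in the same way. For each gene the leading site is the site with the highest mean CPM (counts scaled to library size) over all 5 libraries, so its choice did not use the groups. The leading site lay within 15 bases of the RefSeq gene end in 21 of 51 members and more than 200 bases upstream of it in 26. For 20 members whose leading site was annotated as 3′ UTR and lay within 15 bases of that end, the last 30 bases of the GENCODE transcript named for the site held the poly(A) signal AATAAA in 14 (70.0%) and only its variant ATTAAA in 3, against 64.8% and 13.8% of 5016 genes of the table chosen in the same way. The motif TGTA, the DNA form of the CFIm25 binding site, was found in the last 100 bases of 5 of the 20 (25.0%), against 57.6% of the 5016 genes. Of 12 small-subunit genes chosen in the same way, 11 (91.7%) held AATAAA and 5 (41.7%) held TGTA. Whether the named transcript ends at the leading site was not checked. Motifs were searched on the transcript strand alone, and the last 100 bases take in coding sequence where the 3′ UTR is short. Examples follow with the signal in capitals, for a P stalk protein, a 5S RNP protein, a catalytic-centre protein and a gene with the variant signal.

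RPLP0, chromosome 12, last 30 bases: caaggaAATAAAggcttacttctttaaaaa
RPL5, chromosome 1, last 30 bases: tatagatAATAAActtatgaacagcaacta
RPL3, chromosome 22, last 30 bases: ggtctcAATAAAagttattttccactgaca
RPL26, chromosome 17, last 30 bases: acaagctttgATTAAAacttgaaacaaaga

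The depth of the table was 5203908 and 5243225 reads for the controls and 7783102, 7009418 and 5684809 reads for CFIm25 KO 1 to 3, so CFIm25 KO 1 and 2 were the deepest. NUDT21 had 223 and 222 CPM in the controls and 131, 129 and 133 CPM in CFIm25 KO, and its log2 fold change of -0.77 (SE 0.11) passed the test (edgeR adjusted p = 0.032), in the direction of the labels. All 10 markers of undifferentiated stem cells were detected, with a summed level of 3631 to 5411 CPM in the controls and 5143 to 5240 CPM in CFIm25 KO. Of 8 neural markers, 5 were in the table, at 166 to 191 CPM in the controls and 227 to 472 CPM in CFIm25 KO, and SIX3 stood at 116 CPM in CFIm25 KO 2 against 0.834 to 5.90 CPM in the other 4 libraries. Markers of fibroblasts (4 of 8 in the table), mesoderm (2 of 6), endoderm (1 of 6) and trophoblast (2 of 6) summed to at most 235, 41.6, 4.82 and 60.0 CPM in any library. The part of these markers in the results below was not tested.

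The share of large-subunit mRNAs differed little between the groups. Of all reads in the table it was 9.88% and 10.2% in the controls and 10.4%, 11.1% and 9.43% in CFIm25 KO 1 to 3. The CFIm25 KO libraries thus lay on both sides of the controls, with the highest share in CFIm25 KO 2 and the lowest in CFIm25 KO 3. The exact binomial 95% interval was 9.86% to 9.91% in control 1, and such intervals cover the counting error of reads only. They leave out the spread between libraries, and the reads carry no molecular identifiers that would tell copies of 1 molecule apart. RPL37A alone held 24.9% to 28.8% of the large-subunit reads, and without it the shares were 7.42% and 7.39% against 7.62%, 7.87% and 6.95%.

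**Figure D1:**
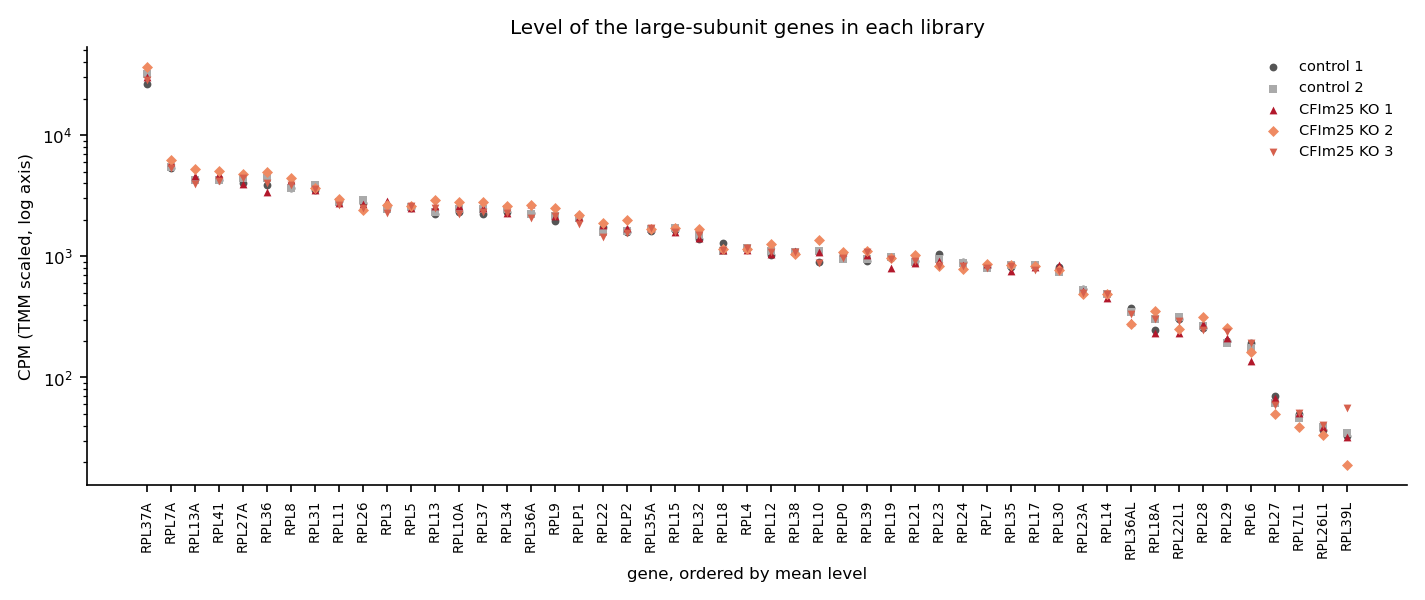
Level of each of the 51 large-subunit genes in each library, in CPM after TMM scaling on a log axis, with genes ordered by mean level and 1 symbol per library. RPL37A stands above all others at 26656 to 36547 CPM, and the 5 symbols of most genes lie close together.

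No large-subunit gene was called changed at the level of the whole gene. In edgeR's quasi-likelihood test over 11841 genes, 0 of 51 members passed an adjusted p of 0.05, where 0.0591% of all genes tested did (7 genes, 0.0169% higher and 0.0422% lower in CFIm25 KO), and DESeq2 called 0 members as well. At an unadjusted p under 0.05 there were 2 members in edgeR and 0 in DESeq2, where 7.13% of all genes tested passed in edgeR. The log2 fold changes, CFIm25 KO minus control, ran from -0.26 (RPL36AL) to 0.27 (RPL29), and 31 of 51 lay within 0.1 of 0. Their median was 0.03, beside 0.01 over all genes and 0.06 over 32 small-subunit genes. The groups did not overlap in 11 of 51 members, 4 higher and 7 lower, beside 24.5% of all genes tested.

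**Figure D2:**
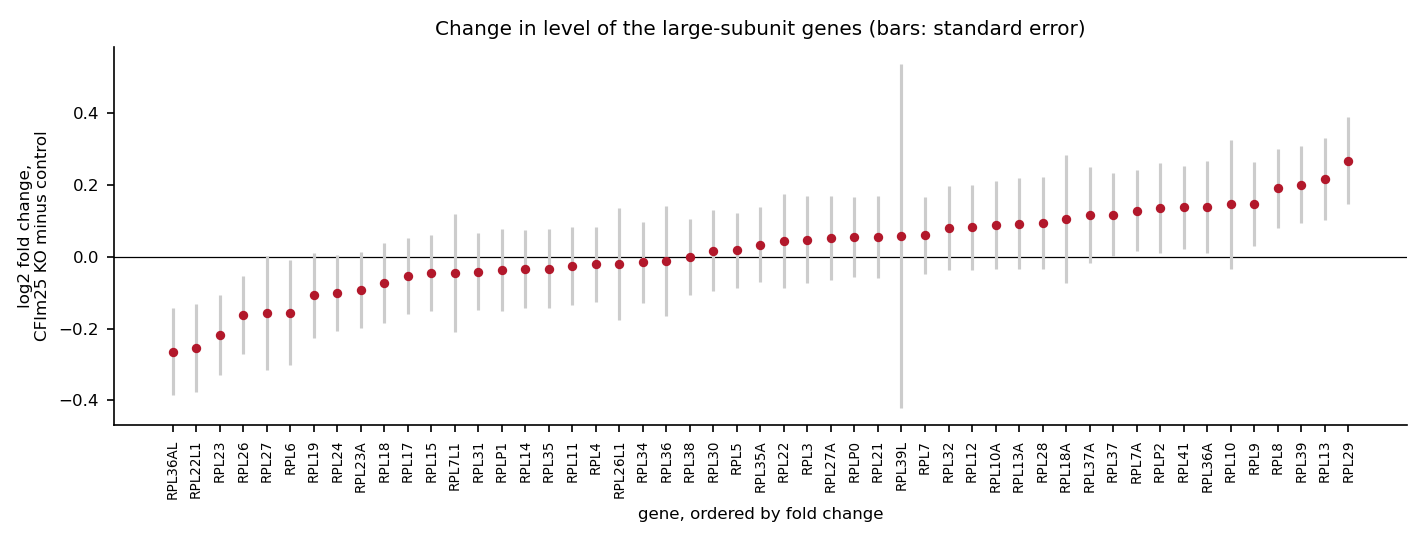
Log2 fold change of each large-subunit gene, CFIm25 KO minus control, ordered by size, with the standard error as bars. The points run from -0.26 to 0.27 and 28 of 51 lie above 0.

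The 10 members with the smallest p were RPL29, RPL36AL, RPL22L1, RPL23, RPL13, RPL39, RPL8, RPL26, RPL9 and RPL41, all with an adjusted p of at least 0.696. RPL29, a protein of the outer surface of the subunit, had 198 and 193 CPM in the controls and 212, 258 and 236 CPM in CFIm25 KO. All CFIm25 KO libraries lay above both controls, with a log2 fold change of 0.27 (SE 0.12, edgeR adjusted p = 0.70). RPL23, a protein at a bridge to the small subunit that also binds MDM2, had 1051 and 949 CPM in the controls and 918, 832 and 829 CPM in CFIm25 KO, a log2 fold change of -0.22 (SE 0.11, edgeR adjusted p = 0.74). RPL39, which lines the exit tunnel for the new chain, had 917 and 946 CPM against 1016, 1109 and 1087 CPM, a log2 fold change of 0.20 (SE 0.11, edgeR adjusted p = 0.76). The log2 fold changes of the other members among the 10 without a close paralogue, RPL13, RPL8, RPL9 and RPL41, were between 0.14 and 0.22. With CFIm25 KO 2 left out they were 0.07 for RPL9 and 0.08 for RPL41, and with control 1 left out 0.08 for RPL9.

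The 5S RNP joins RPL5, RPL11 and 5S ribosomal RNA, and when it is not built into ribosomes it holds MDM2 and thereby stabilises p53. RPL5 had 2524 and 2561 CPM in the controls and 2526, 2616 and 2582 CPM in CFIm25 KO. RPL11 had 2837 and 2824 CPM in the controls and 2734, 2966 and 2645 CPM in CFIm25 KO. The groups overlapped in both genes, and their log2 fold changes were 0.02 (SE 0.10) and -0.03 (SE 0.11).

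The P stalk, which recruits translation factors, consists of RPLP0, RPLP1 and RPLP2 on a base that includes RPL12. RPLP0, its scaffold, had 1056 and 955 CPM in the controls and 1085, 1078 and 974 CPM in CFIm25 KO. RPLP1 had 2140 and 2085 CPM in the controls and 2106, 2211 and 1860 CPM in CFIm25 KO. The highest value of RPLP2 was in CFIm25 KO 2 (2011 CPM) and its other values were 1552 to 1701 CPM. RPL12 likewise peaked in CFIm25 KO 2 at 1260 CPM, with 1026 and 1112 CPM in the controls. The groups overlapped in all 4 genes, whose log2 fold changes were between -0.04 and 0.14. RPL10A, the protein of the L1 stalk that guides the spent tRNA out, had 2341 and 2463 CPM in the controls and 2621, 2822 and 2218 CPM in CFIm25 KO, with a log2 fold change of 0.09 (SE 0.12).

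The exit-tunnel list (RPL17, RPL19, RPL23A, RPL26, RPL31, RPL35 and RPL39) had 1 of 7 genes above 0 and a median of -0.05, and the list around the peptidyl transferase centre (RPL3, RPL4, RPL8, RPL10 and RPL36A) had 4 of 5 above 0 and a median of 0.14. The subunit-bridge list, for proteins that touch the small subunit, had 2 of 5 above 0 and a median of -0.10. No gene of these 3 lists passed the test. Over all members 54.9% lay above 0, and over all genes tested 51.6% did. RPL26 of the tunnel rim, known to bind p53 mRNA, had 2745 and 2935 CPM in the controls and 2692, 2406 and 2521 CPM in CFIm25 KO, with all CFIm25 KO libraries below both controls and a log2 fold change of -0.16 (SE 0.11, edgeR adjusted p = 0.83). RPL8, near the catalytic centre, had 3674 and 3667 CPM in the controls and 4245, 4467 and 3858 CPM in CFIm25 KO, all above both controls, with a log2 fold change of 0.19 (SE 0.11, edgeR adjusted p = 0.79).

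RPL6 is represented in part. Its 2 sites in the table are both annotated as exon and give 138 to 194 CPM, whereas a site with no gene name at chromosome 12, position 112405190, 9 bases from the RefSeq end of RPL6 at 112405181, had 9732 and 10016 reads in control libraries and 14816, 12793 and 10459 in CFIm25 KO. With that site added the level of RPL6 was 2215 and 2309 CPM in the controls and 2214, 2255 and 2291 CPM in CFIm25 KO, a log2 fold change of -0.01 (SE 0.10) in place of -0.16 (SE 0.15). The groups overlapped in either case.

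Of 40 genes listed for assembly of the large subunit, 36 were tested and 0 passed in either direction, with 12 above 0 and 24 below, a median of -0.09 and 4 at an unadjusted p under 0.05 in edgeR, beside 7.13% of all genes. For RNA polymerase I, which transcribes ribosomal RNA, 13 genes were tested and 0 passed, with a median of 0.10 and 2 at an unadjusted p under 0.05. For the box C/D and H/ACA proteins, which guide modification of ribosomal RNA, 10 were tested and 0 passed, with 9 below 0, a median of -0.07 and 0 at an unadjusted p under 0.05. For 19 other mRNAs with a 5′ TOP start, 0 passed, the median was 0.04 and 2 had an unadjusted p under 0.05. Of the 3 cleavage factor I genes NUDT21 alone passed, and CPSF6 and CPSF7, which encode the larger subunits, had log2 fold changes of 0.21 (SE 0.13, edgeR adjusted p = 0.82) and 0.12 (SE 0.19, edgeR adjusted p = 0.94).

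Several members have a paralogue, a second gene for nearly the same protein, and the ratio within a library needs no scaling between libraries. RPL22L1, which can replace RPL22, had 17.4% and 20.02% of the RPL22 reads in the controls and 13.0%, 13.4% and 20.3% in CFIm25 KO. RPL36AL had 16.5% and 15.5% of the RPL36A reads in the controls and 10.7%, 10.4% and 16.1% in CFIm25 KO. In both pairs CFIm25 KO 1 and 2 lay below both controls and CFIm25 KO 3 did not. The mean log2 ratio differed by -0.30 for RPL22L1 and -0.40 for RPL36AL, with a two-sided exact permutation p of 0.4 and 0.3 (adjusted over 5 pairs 0.67 for each), where the smallest p that 2 against 3 libraries allow is 0.1.

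The other pairs were less unequal between groups or varied more. RPL26L1 had 1.34% and 1.34% of the RPL26 reads in the controls and 1.45%, 1.40% and 1.60% in CFIm25 KO, above both controls in every library, with an exact permutation p of 0.2 (adjusted 0.67). RPL39L, the paralogue best known from testis and tumours, had 3.57% and 3.70% of the RPL39 reads in the controls and 3.17%, 1.70% and 5.11% in CFIm25 KO. RPL7L1, a homologue that acts in ribosome assembly, had 6.13% and 5.82% of the RPL7 reads in the controls and 5.91%, 4.49% and 6.33% in CFIm25 KO. The difference of the mean log2 ratio was -0.27 for RPL39L and -0.11 for RPL7L1, and without CFIm25 KO 2 it was 0.15 and 0.03, so 1 library set its direction. RPL39L was the member of lowest level, at 18.9 to 55.5 CPM. Its intronic site at chromosome 3, position 187171792 had 15 and 18 reads in control libraries, 14 and 2 in CFIm25 KO 1 and 2, and 116 in CFIm25 KO 3.

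The sites within the genes were compared next. Of the 144 member sites, 114 were annotated as 3′ UTR, 20 as exon and 10 as intron. There were 15 members with 1 site and 36 with at least 2, and RPL37A had the most with 9 sites. The leading site held a median of 99.5% to 99.6% of the reads of its gene in every library. The other sites of a gene thus held few reads in most members, and 39 or 40 of the 51 genes had at least 95% of their reads at the leading site in each library.

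In edgeR's diffSpliceDGE, which compares the log2 fold change of a site with that of its gene, 108 member sites were tested and 0 passed an adjusted p of 0.05, where 0.043% of 13949 sites of all genes did. At an unadjusted p under 0.05 there were 7 member sites, where 3.48% of all sites passed, and edgeR with the gene total as offset called 0 member sites as well. As levels of single sites, 127 member sites were tested in edgeR and 0 passed, with 16 at an unadjusted p under 0.05, where 0.0911% of all sites passed the adjusted and 8.21% the unadjusted threshold.

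The shifts of the member sites were not spread evenly around 0. There were 55 member sites in 22 genes that were annotated as 3′ UTR and lay downstream of the leading site, and 46 of them in 21 genes passed the filter on low counts. Of these 46, 37 (80.4%) had a positive shift in CFIm25 KO, meaning a larger share of the reads of the gene, where 55.7% of 2746 such sites of all genes did. The median shift was 0.41 in members and 0.06 over all genes. In 18 of the 46 (39.1%) every CFIm25 KO library lay above both controls, where 18.4% of all such sites did, and in 1 of the 46 every CFIm25 KO library lay below, where 10.1% did. For 10 sites of small-subunit genes the shift was positive in 8, with a median of 0.28. Among sites with a mean of at least 50 reads, 17 of 21 member sites (81.0%) were positive, beside 58.1% of 720, and in 7 of the 21 (33.3%) every CFIm25 KO library lay above both controls, beside 26.1%. With no count filter 44 of all 55 member sites (80.0%) were positive, beside 55.0% of 3417. Among genes whose leading site held at least 300 CPM, 35 of 43 member sites (81.4%) were positive, beside 60.1% of 198. Upstream 3′ UTR sites of members had 5 of 9 positive with a median of 0.02, and intronic sites 4 of 8.

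These counts carry limits. Sites of 1 gene share their reads and are not independent. The table keeps sites by RPM summed over 5 libraries, of which 3 are CFIm25 KO. The filter on low counts favours sites present in 3 libraries in the same way, so the counts over the sites that passed are a description. Of the 18 sites with every CFIm25 KO library above both controls, several had too few control reads to reach the filter's minimum in either control. They lay in RPL15, RPL37, RPL14, RPL4, RPL31 and RPL38 and were kept for their reads in CFIm25 KO alone. The share was highest in the deepest libraries for several sites, and the part of depth was not tested.

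**Figure D3:**
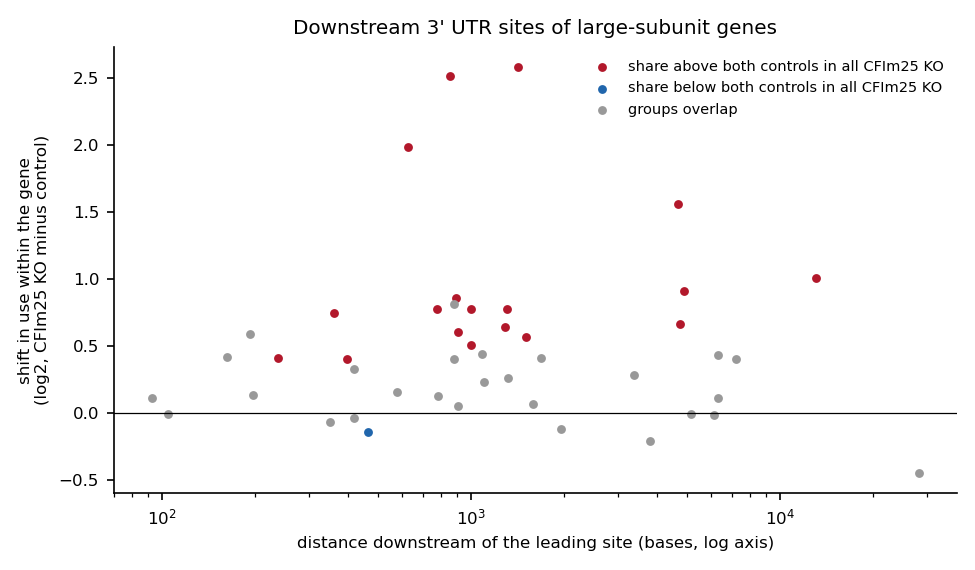
Shift in use of each of the 46 tested downstream 3′ UTR sites of large-subunit genes (log2, CFIm25 KO minus control, vertical axis) against its distance from the leading site in bases (log axis), coloured by whether the shares of the groups overlap. Of the 46 points 37 lie above 0, and the highest are sites of RPL15, RPL4, RPL37 and RPL14 with fewer than 10 reads in each control, which the count filter kept for their reads in CFIm25 KO.

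Downstream 3′ UTR reads were then summed per gene and set against the leading site. The median over 21 genes was 1.39 and 1.35 downstream reads per 100 leading reads in the controls and 2.26, 2.33 and 1.67 in CFIm25 KO 1 to 3, so CFIm25 KO 3 lay closest to the controls. Summed over all 55 sites and taken as a percent of all member reads, downstream reads were 2.94% and 2.63% in the controls and 3.16%, 2.98% and 2.75% in CFIm25 KO, so by that measure CFIm25 KO 3 lay between the controls and CFIm25 KO 2 just above them. The RPL13A site, whose share was smaller in CFIm25 KO, weighs heavily in this sum, with 8428 of the 15104 downstream reads of control 1. The shift was positive in 17 of 21 members (81.0%) with a median of 0.34, where 55.9% of 1934 genes were positive with a median of 0.05. Small-subunit genes were alike, with 7 of 8 (87.5%) positive and a median of 0.29. Every CFIm25 KO library lay above both controls in 8 of 21 (38.1%), where 18.3% of all genes did, and below both in RPL13A alone. Of the 21, 0 passed an adjusted p of 0.05 in diffSpliceDGE, where 0.259% of the genes did, and 5 had an unadjusted p under 0.05, where 5.33% did. With each library left out in turn, 75.0% to 85.0% of the members were positive, beside 54.4% to 57.7% of all genes.

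**Figure D4:**
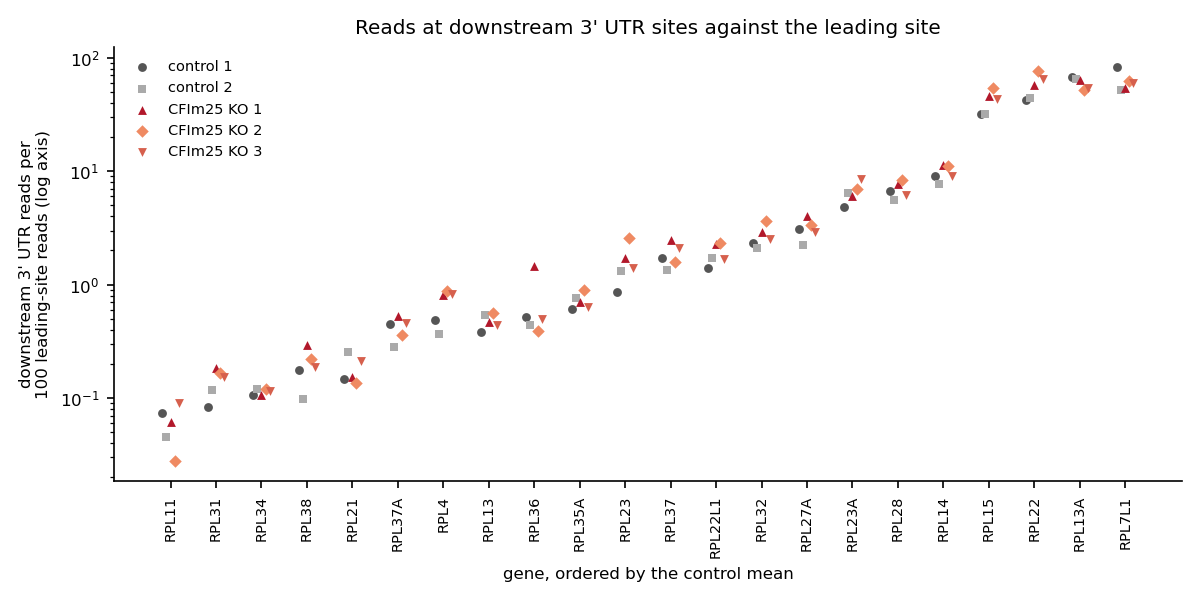
Reads at downstream 3′ UTR sites per 100 reads at the leading site (log axis) for the 22 large-subunit genes that have such sites, with genes ordered by the control mean and 1 symbol per library. In RPL15, RPL22, RPL4 and RPL23 all CFIm25 KO symbols lie above both control symbols, and in RPL13A they lie below.

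RPL15, a core protein needed for 60S assembly, had 32.1 and 32.1 downstream reads per 100 leading reads in the controls and 46.0, 54.6 and 43.4 in CFIm25 KO. The controls were nearly identical and every CFIm25 KO library was higher, with a shift of 0.42 (SE 0.14, diffSpliceDGE adjusted p = 0.89). Its leading site at chromosome 3, position 23919550 held 75.7% and 75.7% of the reads of the gene in the controls and 68.5%, 64.7% and 69.7% in CFIm25 KO. The site 238 bases downstream held 22.4% and 22.6% in the controls and 28.9%, 32.8% and 27.4% in CFIm25 KO. The site 1292 bases downstream had 95 and 93 reads in control libraries and 195, 189 and 158 in CFIm25 KO, or 1.20% and 1.15% against 1.71%, 1.81% and 2.00%. The level of the whole gene differed by -0.05 (SE 0.11) on the log2 scale, a difference within its error.

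RPL22, a surface protein whose loss is known from blood cell development, had 42.7 and 44.6 downstream reads per 100 leading reads in the controls and 57.1, 76.1 and 65.2 in CFIm25 KO, a shift of 0.39 (SE 0.16, diffSpliceDGE adjusted p = 0.92). The leading site at chromosome 1, position 6186617 held 68.8% and 68.7% of the reads of the gene in the controls and 62.5%, 55.3% and 59.2% in CFIm25 KO. The site 398 bases downstream held 25.0% and 25.5% in the controls and 30.5%, 37.5% and 31.6% in CFIm25 KO. As a single site its level passed the threshold when CFIm25 KO 3 was left out, together with a site of RPL27A and a site of RPL37A (log2 fold changes of 0.59, 0.98 and 0.75). In that setting 255 of 21054 sites of all genes passed, against 19 of 20851 with all libraries.

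**Figure D5:**
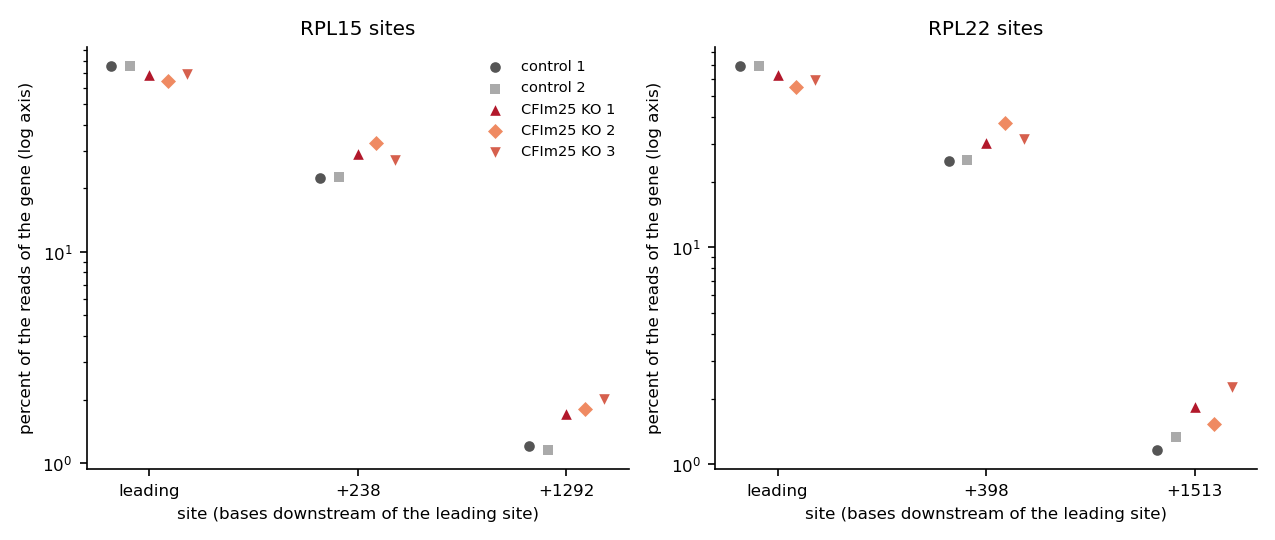
Percent of the reads of the gene (log axis) at the leading site and at 2 downstream sites of RPL15 (238 and 1292 bases) and of RPL22 (398 and 1513 bases), with 1 symbol per library. The downstream sites shown are those of at least 1% of the reads in which every CFIm25 KO library lies above both controls, and at the leading sites the CFIm25 KO symbols lie below both control symbols.

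RPL4, which reaches into the exit tunnel, had the largest shift of the summed downstream reads. It had 0.489 and 0.364 downstream reads per 100 leading reads in the controls and 0.804, 0.879 and 0.826 in CFIm25 KO, a shift of 0.96 (SE 0.26, diffSpliceDGE adjusted p = 0.52). The site 361 bases downstream, at chromosome 15, position 66498961, had 26 and 18 reads in control libraries and 48, 47 and 43 in CFIm25 KO. The site 855 bases downstream held 1 and 2 reads against 16, 14 and 5, a difference in very few reads that is given with no test. Its reads are part of the summed shift of RPL4.

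RPL23 had 0.862 and 1.33 downstream reads per 100 leading reads in the controls and 1.70, 2.55 and 1.41 in CFIm25 KO, a shift of 0.79 (SE 0.26, diffSpliceDGE adjusted p = 0.52) that was 0.50 without control 1 and 0.53 without CFIm25 KO 2. Its sites 880 and 1308 bases downstream were both among the 10 member sites with the smallest p. RPL32, the last of the 5 with an unadjusted p under 0.05, had 2.31 and 2.08 in the controls and 2.93, 3.63 and 2.55 in CFIm25 KO, a shift of 0.47 (SE 0.20, diffSpliceDGE adjusted p = 0.92). In both genes CFIm25 KO 2 was the highest library and CFIm25 KO 3 the lowest of the 3.

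The single sites with the smallest p of use lay in RPL15, RPL37, RPL14, RPL4, RPL27A, RPL23 and RPL26, and all but the RPL26 site lay downstream of the leading site. RPL27A, at chromosome 11, position 8686843 and 997 bases downstream, was the best counted of the first 5 of them, with 135 and 121 reads in control libraries and 371, 329 and 185 in CFIm25 KO. That was 0.696% and 0.589% of the reads of the gene against 1.33%, 1.14% and 0.837%, a shift of 0.77 (SE 0.25, diffSpliceDGE adjusted p = 0.81). RPL37 at position 40831828 of chromosome 5 had 5 and 2 reads in control libraries and 19, 20 and 19 in CFIm25 KO, a shift of 1.98 (SE 0.53). RPL14 at position 40466946 of chromosome 3 had 7 and 9 reads in control libraries and 39, 29 and 22 in CFIm25 KO, a shift of 1.56 (SE 0.44). It lies 4672 bases downstream of the leading site, and 2 further sites at 4746 and 4880 bases also had all CFIm25 KO shares above both controls. RPL15 at position 23920974 had 2 and 1 reads in control libraries and 14, 9 and 12 in CFIm25 KO, a shift of 2.58 (SE 0.54). These RPL37 and RPL15 sites, the RPL14 sites at 4672, 4746 and 4880 bases and the RPL4 site 855 bases downstream had few control reads. They passed the count filter through the CFIm25 KO libraries alone, so their shifts are a description. The RPL15 site was no longer tested with any CFIm25 KO library left out, nor the RPL4 site without CFIm25 KO 1 or 2.

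In RPL13A the more distal of the strong sites had a smaller share in every CFIm25 KO library than in both controls. In RPL13 the upstream strong site had a smaller share, and the groups overlapped at the leading site. That RPL13 site held 55.4% and 56.0% of the reads of the gene in the controls and 58.2%, 59.5% and 55.2% in CFIm25 KO. RPL13A, which is known to act in silencing of inflammatory mRNAs when released from the ribosome, uses 2 strong sites 463 bases apart. It had 68.1 and 65.0 downstream reads per 100 leading reads in the controls and 63.9, 52.2 and 54.5 in CFIm25 KO, a shift of -0.14 (SE 0.15, diffSpliceDGE adjusted p = 0.999). RPL13 uses a site 373 bases upstream of its leading site, which held 37.8% and 36.96% of the reads of the gene in the controls and 32.5%, 33.3% and 36.5% in CFIm25 KO, a shift of -0.14 (SE 0.19). Every CFIm25 KO library lay below both controls in that share, although CFIm25 KO 3 by little.

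RPL37A, a zinc-binding protein and the member of highest level, had 26656 and 31723 CPM in the controls and 30085, 36547 and 28286 CPM in CFIm25 KO, with overlapping groups. Its 6 downstream 3′ UTR sites together held 0.453 and 0.281 reads per 100 leading reads in the controls and 0.531, 0.360 and 0.456 in CFIm25 KO, so the groups overlapped there too. The site 1001 bases downstream held 0.203% and 0.151% of the reads of the gene in the controls and 0.270%, 0.243% and 0.229% in CFIm25 KO.

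The RPL26 site 95 bases upstream of its leading site was listed at 0 in both controls and in CFIm25 KO 2, and at 83 and 82 reads in CFIm25 KO 1 and 3. With CFIm25 KO 2 left out, this site passed the threshold both in use (diffSpliceDGE adjusted p = 8.0e-05) and in level (edgeR adjusted p = 9.5e-05). The count filter kept it for its reads in CFIm25 KO 1 and 3 alone, so these values are a description. Other sites close to a strong site were likewise listed at 0 in some libraries and not in others of the same group, such as the RPL19 site 55 bases upstream of its leading site (0 and 45 reads for control 1 and 2, then 0, 67 and 0 for CFIm25 KO 1 to 3) and the RPL37A site 163 bases downstream (83 and 0 reads, and 124, 0 and 102). In these last 2 sites the entries at 0 stood in both groups.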

How the data were processed

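Poly(A)-selected RNA was sequenced from the 3′ end (QuantSeq Rev, which gives a read per transcript end, so that levels need no length scaling). The authors reversed the reads, mapped them with Bowtie2 keeping a single placement per read, removed internal priming and clustered the ends. The deposited counts are raw reads per site and library. The deposited RPM columns and their score column of summed RPM were made by the authors from those counts, and the table keeps sites with a summed RPM of at least 5. The authors' fold ratio and p-value columns hold their own comparison and were not used. Reads from genes and their pseudogenes cannot always be told apart, and 12 named pseudogenes held 0.0717% of member and pseudogene reads. The labels name GRCh37, but leading sites lay within 1000 bases of their gene in 51 of 51 members in GRCh38.p14 and in 4 of 51 in GRCh37, so positions are GRCh38 as the table gives them. No genome of that build was used here, so sequence at the sites themselves was not read, and starts (RefSeq) and transcript ends (GENCODE v44lift37, by identifier) stand in its place.

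Counts were summed per gene and fitted over the whole table in R 4.3.3 with edgeR 4.0.16 (TMM scaling, the filterByExpr minimum and the robust, two-sided quasi-likelihood test, with Benjamini-Hochberg adjustment over all features at 0.05), with DESeq2 1.42.0 as an alternative. Reads at sites without a gene name (9.78% to 10.8% per library) stayed out. Use within genes was tested with diffSpliceDGE. SE is the size of the log2 fold change divided by the root of its F statistic. The scripts were tested on simulated data. Named genes were the 10 members and 10 member sites with the smallest p, the extremes of level and change, the 5S RNP, both stalks and all paralogue pairs, and other members were named after their values were seen. Members, lists and tests were chosen with earlier results of these data known. The result of 1 other list is not reported here.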

Additional observations from a re-analysis of the deposited data

How the results depend on the processing

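Under DESeq2 size factors in edgeR, library totals, TMM factors without ribosomal protein genes, DESeq2, no count filter, 3′ UTR sites only and RPL6 with its unannotated site (the last added after seeing the data), 0 members passed at gene level and their median log2 fold change was between 0.007 and 0.04. With each library left out in turn it was between -0.006 and 0.03, again with 0 members called. DESeq2 called 27 genes of the table and edgeR 7, and edgeR called 2 to 123 with a library left out, the most without CFIm25 KO 3. The difference in the large-subunit share of reads, CFIm25 KO minus control, was 0.23 percentage points, 0.08 without RPL37A, and between -0.15 and 0.66 with a library left out. The share of downstream 3′ UTR member sites with a positive shift was 73.9% to 81.4% under the other settings and 74.5% to 85.5% with a library left out, and summing sites per gene, the minimum of 50 reads and the minimum of 300 CPM were chosen after seeing the data. With a library left out, 0 to 1 member sites passed in use and 0 to 3 in level, beside 10 to 23 and 21 to 255 sites of all genes, and the range of the difference in log2 ratio was -0.50 to -0.18 for RPL22L1, 0.08 to 0.18 for RPL26L1, -0.60 to -0.28 for RPL36AL, -0.65 to 0.15 for RPL39L and -0.21 to 0.034 for RPL7L1. The 3′ UTR setting gave no RPL39L ratio because the site of RPL39 is annotated as exon. 

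The labels give controls and CFIm25 KO shared replicate numbers 1 and 2 without saying that a number marks a shared culture, so the samples were not taken as paired. Deviations from the group means correlated at 0.07 and 0.05 across genes between libraries of the same number. With 2 controls their deviations mirror each other, so these correlations do not decide the question. With the replicate number as a block, CFIm25 KO 3 has no partner and the contrast rests on 4 libraries. In that fit 634 of 11841 genes passed, where 7 did with no block, and 2 of them were members, both lower (RPL36AL at -0.35 and RPL22L1 at -0.35). In use 27 of 13949 sites passed, where 6 did with no block. Of these, 1 was a member site (RPL26, a shift of 8.18), which the filter kept for its CFIm25 KO reads alone. The summed downstream reads of RPL23 had a shift of 0.95 in that fit. The number of all genes passing there was not counted, so that RPL23 passed is not read as a result about the gene. Few reads at most downstream sites limit the precision of single shifts.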

Other observations

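Sites named for large-subunit pseudogenes numbered 15 in 12 genes and held 2273 reads over the 5 libraries, beside 3168559 reads at member sites. There were 4 sites of read-through genes that join a large-subunit gene to its neighbour, with 220 reads over the 5 libraries. The 51 members lay on 19 chromosomes, with the most on chromosome 3 (8 genes) and chromosome 17 (6 genes).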
